A study of Rattus norvegicus with 16 samples.

Results

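A set of 6 glutathione S-transferase genes, Gstm1, Gstm2 and Gstm7 of the mu class, Gsta4 of the alpha class, Gsto1 of the omega class and Gstp3 of the pi class, were followed across 4 groups of cultured rat neural stem and progenitor cells. They are 6 of 6241 named genes, or of 12559 units when array features without a single gene symbol are counted as well. A feature counted toward a member when the annotation of the chip gave it exactly that 1 symbol, and features of 1 symbol were averaged on each array. This gave 9 features, 2 for Gstm1, 3 for Gstm2 and 1 for each of the other members. The members had been picked from measured ratios of these same arrays, and the contrast used for the choice is not recorded. Their ratios to the reference are therefore given as a description.

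The cells came from the neocortex of Sprague-Dawley rat embryos at day 14.5 and had been kept as monolayers in fibroblast growth factor 2 (FGF-2, 10 ng/ml), a mitogen that keeps them dividing. For 12 h or 6 d they were then held with no mitogen added, or in platelet-derived growth factor AA (PDGF-AA, 10 ng/ml), a ligand of the PDGF alpha receptor. The 4 groups are thus no factor 12 h, PDGF-AA 12 h, no factor 6 d and PDGF-AA 6 d, each with 4 arrays, and the labels name no transgene, deletion or other agent in any of them. RNA from FGF-2-treated cells was in the other channel of all 16 arrays, so every comparison with FGF-2 shares this reference. The cultures were mixed populations read in bulk, so fewer cells of a type and less RNA per cell cannot be told apart.

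Each value is a log ratio of a group's RNA over the FGF-2 reference, taken as log2. A value of 1 is a doubling if that base is right, since no label or header used here names it. The direction, sample over reference, is likely and not stated; its basis is that replication genes lay below 0 after the mitogen was withdrawn, for example Mcm6 at -2.59 ± 0.23 (SE) without factor at 12 h. Rat RNA was hybridised to mouse cDNA, so gene symbols are those of the mouse chip. Within the mu class the coding sequences are closely related, and a long cDNA feature can bind RNA of several relatives. How far a feature reads its own gene alone was not tested.

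Mu class enzymes are the main glutathione transferases of astrocytes in the rodent brain, whereas a pi class enzyme is widely used as a marker of oligodendrocytes. Gsta4 is known for conjugating 4-hydroxynonenal, a toxic aldehyde from oxidised membrane lipids. Gsto1 carries a cysteine in its active site and can reduce dehydroascorbate and mixed disulfides. Many transferase genes can be switched on by the transcription factor NRF2, which binds antioxidant response elements with small Maf proteins.

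In the rat annotation the mu class genes lie side by side on chromosome 2, in the order Gstm5, Gstm6l, Gstm7, Gstm6, Gstm3l1, Gstm3, Gstm2, Gstm1 and Gstm4. The mu members are therefore neighbours in 1 gene cluster, whereas Gsta4 is on chromosome 8 and Gsto1 and Gstp3 are on chromosome 1. The 250 bases before the annotated start are printed for the 4 members that stood above the reference in at least 1 group, because 3 of them share a cluster and all 3 of these had their highest mean in the same group. The sequences are from RefSeq, rat assembly GRCr8, and were matched by symbol for 6 of 6 members. Capitals mark the core of the antioxidant response element, TGACNNNGC, searched on both strands.
Gstm1, chr2:198343384-198343633, minus strand: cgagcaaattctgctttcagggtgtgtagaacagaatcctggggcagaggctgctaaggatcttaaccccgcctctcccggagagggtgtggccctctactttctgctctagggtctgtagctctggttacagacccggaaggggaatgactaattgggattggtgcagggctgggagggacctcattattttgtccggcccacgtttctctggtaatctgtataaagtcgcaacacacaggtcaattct
Gstm2, chr2:198316918-198317167, minus strand: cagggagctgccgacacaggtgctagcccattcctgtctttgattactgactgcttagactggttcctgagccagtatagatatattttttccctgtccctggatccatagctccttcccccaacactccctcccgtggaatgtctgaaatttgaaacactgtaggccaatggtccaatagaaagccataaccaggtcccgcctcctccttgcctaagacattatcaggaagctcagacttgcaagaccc
Gstm7, chr2:198260320-198260569, minus strand: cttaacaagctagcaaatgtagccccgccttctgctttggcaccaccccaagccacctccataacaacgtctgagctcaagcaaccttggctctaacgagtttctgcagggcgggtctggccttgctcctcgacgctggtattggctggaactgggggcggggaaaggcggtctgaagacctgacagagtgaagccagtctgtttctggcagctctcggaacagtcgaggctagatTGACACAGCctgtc
Gsta4, chr8:87947015-87947264, plus strand: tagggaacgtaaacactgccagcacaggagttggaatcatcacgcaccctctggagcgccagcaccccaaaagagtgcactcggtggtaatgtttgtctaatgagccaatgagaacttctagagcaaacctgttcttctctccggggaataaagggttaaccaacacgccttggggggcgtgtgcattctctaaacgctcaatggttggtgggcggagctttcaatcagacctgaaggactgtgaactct
Gstm7 was the only 1 of the 6 members with a match, TGACACAGC at bases 237 to 245 of its window. Of all 33469 rat windows of this length, 10.1% held a match. Gstm1, Gstm2, Gsta4, Gsto1 and Gstp3 had none, which says only that these letters are not in these 250 bases. Among the mu genes outside the members, Gstm5 had matches at bases 138 to 146 and 198 to 206, and Gstm4 and Gstm6 had none. The windows were also aligned in pairs over their whole length, with gaps allowed. Windows of the mu members then matched each other about as often as they matched that of another class. Gstm1 and Gstm2 had identical letters for 52.8% of 250 bases, Gstm1 and Gstm7 for 53.6%, and Gstm1 and Gsta4 for 53.2%. All pairs of the members and the mu genes outside them lay between 48% and 54.8%. Because gaps were allowed, these shares are not a match position by position.

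Across the arrays, the mu members stood above FGF-2 in all 4 groups, Gsta4 stood highest at 12 h and lower at 6 d, and Gsto1 and Gstp3 stayed near the reference. Gstm1, Gstm2 and Gstm7 were above 0 on 16 of 16 arrays each. Gsta4 was above 0 on 14 arrays, Gsto1 on 11 and Gstp3 on 6.

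**Figure D1:**
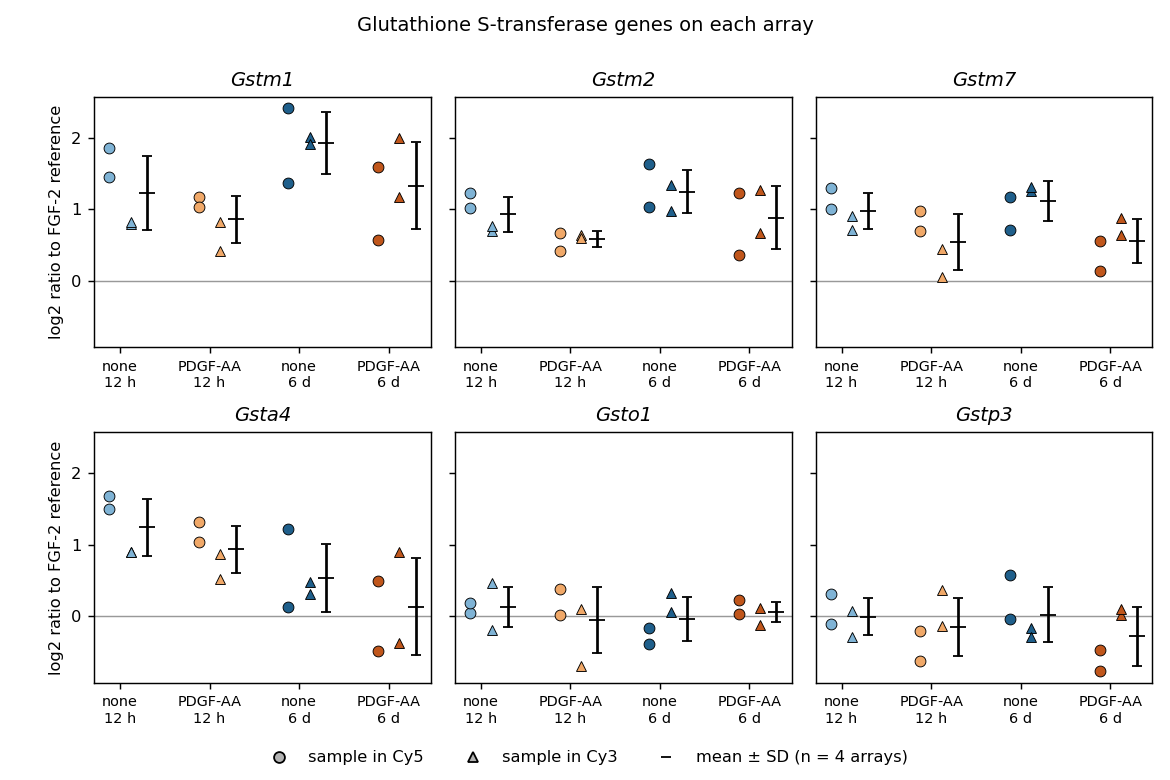
Log2 ratio to the FGF-2 reference (vertical axis) of each member on every array, by group (horizontal axis), with circles for arrays where the sample was in Cy5, triangles for Cy3, and bars for the mean ± SD of 4 arrays. Gstm1, Gstm2 and Gstm7 lie above 0 on all 16 arrays, Gsta4 is lower in both 6 d groups than in the 12 h groups, and Gsto1 and Gstp3 scatter around 0.

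Gstm1 had the highest ratios of the mu members at 6 d. Its arrays without factor at 12 h read 0.80, 0.82, 1.45 and 1.86, and those with PDGF-AA at 12 h read 0.42, 0.82, 1.04 and 1.17. At 6 d the arrays without factor read 1.37, 1.92, 2.02 and 2.42, and those with PDGF-AA read 0.57, 1.18, 1.59 and 2.00. The means ± SD (n = 4) were 1.23 ± 0.51, 0.86 ± 0.33, 1.93 ± 0.43 and 1.33 ± 0.61 in that order. No factor at 6 d had the highest mean and PDGF-AA at 12 h the lowest, and the ranges of all groups overlapped, apart from no factor at 6 d against PDGF-AA at 12 h. The fitted change against FGF-2 was 3.81-fold without factor at 6 d (95% interval 2.79 to 5.20) and 2.35-fold without factor at 12 h (1.72 to 3.21). With PDGF-AA it was 2.52-fold at 6 d (1.84 to 3.44) and 1.82-fold at 12 h (1.33 to 2.48). The value with PDGF-AA at 6 d depends on a first number in the array titles that the labels do not explain: on the log2 scale it was 1.33 in this fit, 2.18 with that number as a term and 2.17 on arrays of the commonest number.

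Gstm2, the neighbouring gene, followed the same order of times within each treatment with smaller ratios. Its arrays without factor at 12 h read 0.70, 0.77, 1.02 and 1.24, and with PDGF-AA at 12 h 0.42, 0.61, 0.64 and 0.67. At 6 d they read 0.98, 1.04, 1.34 and 1.64 without factor and 0.36, 0.68, 1.23 and 1.27 with PDGF-AA. The means were 0.93 ± 0.25, 0.58 ± 0.11, 1.25 ± 0.30 and 0.89 ± 0.44. The 12 h groups did not overlap, each array without factor being above each array with PDGF-AA, whereas at 6 d the treatments overlapped. With the title number as a term, the value with PDGF-AA at 6 d was 1.35 in place of 0.89.

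Gstm7 separated by treatment more than by time. It read 0.71, 0.91, 1.00 and 1.30 without factor at 12 h and 0.71, 1.18, 1.25 and 1.32 without factor at 6 d. With PDGF-AA it read 0.06, 0.44, 0.70 and 0.97 at 12 h and 0.14, 0.56, 0.64 and 0.87 at 6 d. The means were 0.98 ± 0.25 and 1.11 ± 0.28 without factor, against 0.54 ± 0.39 and 0.56 ± 0.31 with PDGF-AA. The lowest arrays without factor still lay inside the range with PDGF-AA at both times.

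Gsta4 had lower means at 6 d than at 12 h within each treatment. Its arrays read 0.90, 0.90, 1.50 and 1.68 without factor at 12 h and 0.52, 0.86, 1.03 and 1.32 with PDGF-AA at 12 h. At 6 d they read 0.13, 0.32, 0.48 and 1.22 without factor and -0.49, -0.38, 0.49 and 0.90 with PDGF-AA. In each 6 d group, 3 of 4 arrays lay below all 8 arrays of 12 h, and with PDGF-AA 2 of these lay below the reference. The means were 1.24 ± 0.40, 0.93 ± 0.33, 0.54 ± 0.48 and 0.13 ± 0.68 (no factor 12 h, PDGF-AA 12 h, no factor 6 d, PDGF-AA 6 d), and the fitted change was 2.37-fold (95% interval 1.75 to 3.21) without factor at 12 h. With the title number as a term, the value with PDGF-AA at 6 d was 1.13 in place of 0.13.

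Gsto1 and Gstp3 lay near 0 in every group. Gsto1 ranged from -0.70 to 0.47 over the 16 arrays and its group means from -0.05 to 0.12. Gstp3 ranged from -0.77 to 0.58, with group means from -0.28 with PDGF-AA at 6 d to 0.02 without factor at 6 d. In each group both genes had arrays on either side of 0. With an SE of 0.15 for Gsto1 and 0.17 for Gstp3, the 95% intervals of all 8 changes included 0, and the widest reach was -0.64, for Gstp3 with PDGF-AA at 6 d.

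Counted against an adjusted p of 0.05 (limma, Benjamini-Hochberg over 12559 units), 4 of 6 members were higher than FGF-2 without factor at 12 h, namely Gstm1, Gstm2, Gstm7 and Gsta4, beside 11.7% of all units called in either direction and 5.21% called higher. With PDGF-AA at 12 h it was 3 of 6, namely Gstm1, Gstm2 and Gsta4, beside 3.01% of units (0.661% higher). Without factor at 6 d it was 3 of 6, the mu members, beside 13.7% of units (6.99% higher). With PDGF-AA at 6 d it was 2 of 6, Gstm1 and Gstm2, beside 3.22% of units (1.9% higher). No member was called lower in any group, beside 6.48%, 2.35%, 6.73% and 1.32% of units. Since the ratios to the reference may be what chose the members, nothing is read from these counts. With PDGF-AA at 12 h the count was 0 without replicate 1, replicate 2 or replicate 4 of that group; without replicate 3, Gstm1 and Gsta4 kept their calls, Gstm2 lost its call and Gstm7 gained one.

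Taken by class, the mean of the 3 mu members was 1.05 ± 0.31 (SD, n = 4 arrays) without factor at 12 h, 0.66 ± 0.22 with PDGF-AA at 12 h, 1.43 ± 0.17 without factor at 6 d and 0.92 ± 0.41 with PDGF-AA at 6 d. The mean of the other 3 members was 0.45 ± 0.18, 0.24 ± 0.13, 0.17 ± 0.28 and -0.03 ± 0.31 in the same order. The mu mean was the higher of the class means on every array. The mean of the others joins Gsta4 with Gsto1 and Gstp3, which lay near 0. At 12 h Gsta4 alone averaged 1.24 without factor and 0.93 with PDGF-AA, against 1.23 and 0.86 for Gstm1, the highest mu member there. The difference of mu minus other spanned 0.37 to 0.73 without factor at 12 h and 0.30 to 0.55 with PDGF-AA at 12 h, against 1.05 to 1.50 without factor at 6 d and 0.71 to 1.11 with PDGF-AA at 6 d. The 6 d arrays thus lay apart from the 12 h arrays within each treatment. The mu mean was higher at 6 d than at 12 h within each treatment, and the mean of the others, which holds Gsta4, was lower. With PDGF-AA, the lower mean of the others depended on the title number. With that number as a term, 6 d minus 12 h was 0.20 for Gsta4, 0.19 for Gsto1 and 0.19 for Gstp3.

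Direct differences between groups were then taken from the same fit; these cancel the reference but share arrays with the counts above. PDGF-AA minus no factor at 12 h was below 0 for all 6 members, from -0.15 for Gstp3 to -0.44 for Gstm7; Gsto1 turned to 0.05 without replicate 3 with PDGF-AA at 12 h, and Gstp3 to 0.0041 without replicate 4. None of them passed the threshold (limma, adjusted p from 0.896 to 0.966), beside 0.0159% of units called. At an unadjusted p under 0.05 there were 0 of 6, beside 5.42% of units. For Gstm2, whose 12 h groups did not overlap, the difference was -0.35 with a 95% interval of -0.77 to 0.08 (limma, adjusted p = 0.926). The interval for Gstm7 ran from -0.88 to 0.01 and that for Gstm1 from -1.01 to 0.26. A lower ratio by 0.8 units or more is thus not excluded by these intervals for Gstm1 and Gstm7.

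At 6 d, PDGF-AA minus no factor was -0.60 (95% interval -1.23 to 0.04) for Gstm1, -0.36 (-0.79 to 0.06) for Gstm2 and -0.56 (-1.0 to -0.12) for Gstm7. Gsta4 had -0.41, Gstp3 -0.30 and Gsto1 0.11. None passed the threshold (limma, adjusted p from 0.473 to 0.940), beside 0.00796% of units. At an unadjusted p under 0.05 there was 1 of 6, Gstm7, beside 8.76% of units. This comparison depends on which arrays are set against each other. Of the first numbers in the array titles, 12 of 16 arrays have the commonest one, including 4 and 4 at 12 h and 3 without factor at 6 d, but only replicate 4 among those with PDGF-AA at 6 d. That array had the highest Gstm1, Gstm2, Gsta4 and Gstp3 ratios of its group. On arrays of the commonest number alone the differences turned to 0.35 for Gstm1, 0.18 for Gstm2, 0.72 for Gsta4 and 0.24 for Gstp3, whereas Gstm7 kept -0.50 and Gsto1 0.13. With the number as a term they were 0.35, 0.20, 0.75 and 0.22, again with Gstm7 at -0.53. Once the number is taken into account, the value with PDGF-AA at 6 d rests on 1 array, replicate 4, for every gene. This holds for Gstm7 and Gsto1 as well as for the 4 genes that turned.

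From 12 h to 6 d without factor, Gstm1 differed by 0.70 (95% interval 0.06 to 1.33), Gstm2 by 0.32 (-0.11 to 0.75) and Gstm7 by 0.14 (-0.31 to 0.58), while Gsta4 differed by -0.71 (-1.33 to -0.09). With PDGF-AA the same differences were 0.47 (-0.16 to 1.10), 0.30 (-0.13 to 0.73), 0.01 (-0.43 to 0.45) and -0.80 (-1.42 to -0.18). None of the 6 members passed the threshold in either (limma, adjusted p from 0.329 to 0.986 and from 0.264 to 0.990), beside 1.87% and 1.07% of units. At an unadjusted p under 0.05 there were 2 of 6 without factor, Gstm1 and Gsta4, beside 11.4% of units. With PDGF-AA there was 1 of 6, Gsta4, beside 11.3%. The Gstm7 difference with PDGF-AA lay next to 0 and was below it in 5 of 25 alternatives. With the title number as a term, the differences with PDGF-AA were 1.31 for Gstm1 (limma, adjusted p = 0.244) and 0.76 for Gstm2 (adjusted p = 0.351), and on arrays of the commonest number 1.31 and 0.73. For Gsta4 both the call and, with PDGF-AA, the direction rested on the choice of arrays: the difference without factor was -0.87 (limma, adjusted p = 0.0354) on arrays of the commonest title number and -0.86 (limma, adjusted p = 0.0479) with that number as a term. With PDGF-AA it was -1.14 (limma, adjusted p = 0.0287) without replicate 4 of PDGF-AA at 6 d, and 0.16 or 0.20 when only that replicate was left or when the number was a term. Whether PDGF-AA changed the course over time was tested as an interaction, which called 0 of 6 members and 0 of 12559 units in limma; 0 of 6 members and 3.96% of units had an unadjusted p under 0.05. The title number turned its direction as well, for Gstm1 from -0.23 to 0.72 (limma, adjusted p = 0.739) and for Gsta4 from -0.10 to 1.05 (adjusted p = 0.607).

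**Figure D2:**
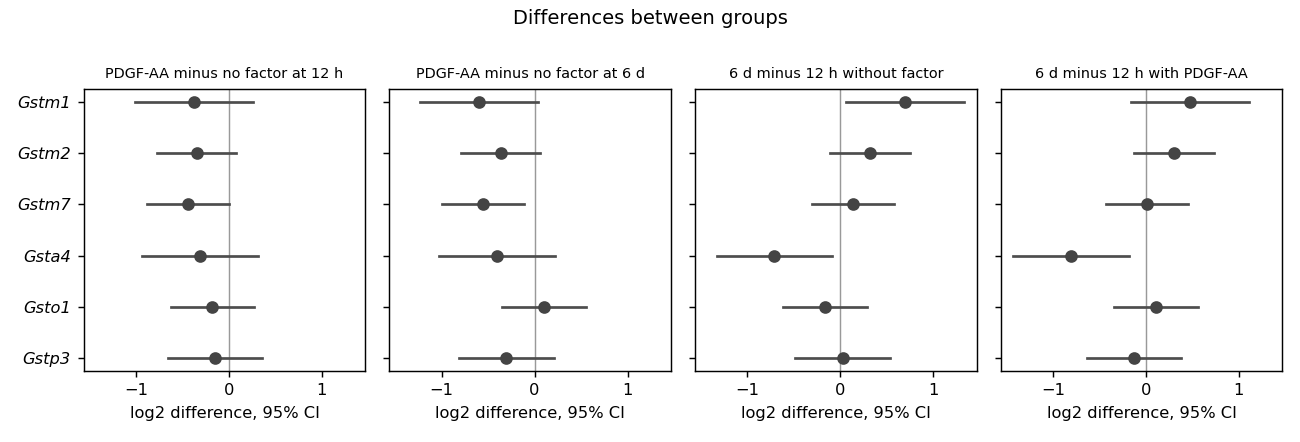
Differences between groups (horizontal axis, log2) for each member (rows), with points for the limma estimate and lines for the 95% interval, in 4 panels for the 2 treatment and the 2 time comparisons. All points in the 12 h treatment panel lie left of 0, and Gsta4 lies left of 0 while Gstm1 and Gstm2 lie right of it in both time panels; no difference passed the adjusted threshold.

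Ordered by their means, neighbouring groups had overlapping arrays for Gstm1, Gstm2, Gstm7 and Gsta4. Such overlap is not a test of a difference. Groups further apart in the order did not all overlap, for example the 12 h groups of Gstm2. For Gstm1 the order from high to low was no factor 6 d, PDGF-AA 6 d, no factor 12 h and PDGF-AA 12 h. For Gstm2 and Gstm7 it was no factor 6 d, no factor 12 h, PDGF-AA 6 d and PDGF-AA 12 h. For Gsta4 it was no factor 12 h, PDGF-AA 12 h, no factor 6 d and PDGF-AA 6 d.

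The separate features of a gene give a second reading of the same RNA. The 2 Gstm1 features averaged 1.35 and 1.33 over the 16 arrays, and their means were furthest apart without factor at 6 d, at 2.02 and 1.84. The 3 Gstm2 features differed more, with averages of 0.86, 1.34 and 0.54 over the 16 arrays, and without factor at 6 d their means spread from 0.75 to 1.84. Every feature of Gstm1 and Gstm2 had a mean above 0 in every group. The features of Gstm2 also leaned to opposite dyes: the first read 0.50 higher with the sample in Cy5, the second 0.52 lower and the third 0.27 higher.

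**Figure D3:**
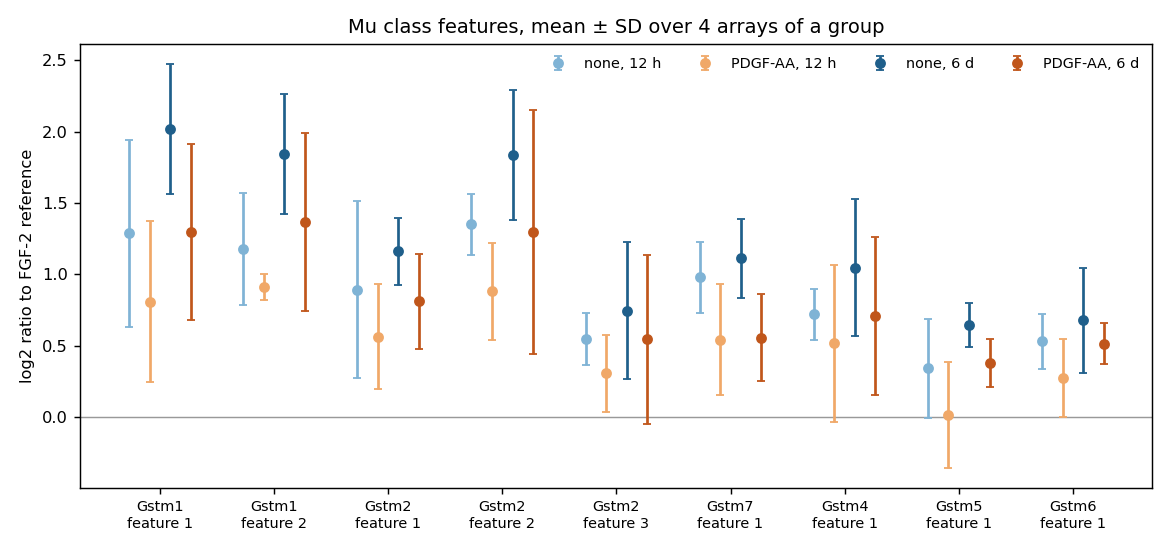
Mean ± SD over 4 arrays (vertical axis, log2 ratio to FGF-2) of each feature annotated to a mu class gene, in the 4 groups. The second Gstm2 feature lies close to the Gstm1 features and the third lies lowest of the Gstm2 features; in every feature no factor at 6 d has the highest mean.

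Over 16 arrays with the fitted dye effect removed, the Gstm1 features correlated with each other at r = 0.946. The second Gstm2 feature correlated with the Gstm1 features at r = 0.856 and 0.901, but with the other Gstm2 features at 0.702 and 0.595. The first Gstm2 feature likewise had 0.881 and 0.850 with the Gstm1 features and 0.546 with the third Gstm2 feature. With the Gstm4 feature, the first, the second and the third feature of Gstm2 correlated at 0.466, 0.830 and 0.792. These correlations are descriptions over arrays that share the reference and the groups, and shared binding between related cDNAs was not tested. At the gene level Gstm1 and Gstm2 correlated at r = 0.892, Gstm1 and Gstm7 at 0.546, and Gstm2 and Gstm7 at 0.397. Gsta4 correlated with the mu members at 0.226 to 0.303, and Gsto1 and Gstp3 ran against each other at -0.614.

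The rest of the family was read from the genes that are not members. Of 32 transferase and related genes listed, 15 had a feature of their own, and 9 of these are not members. A feature with both pi class symbols Gstp1 and Gstp2 was not counted under either name. The mu genes Gstm4, Gstm5 and Gstm6 had means above 0 in all 4 groups, though that of Gstm5 with PDGF-AA at 12 h was next to 0. Of the 9, 2 were higher than FGF-2 without factor at 12 h (Gstm4 and Gstm6), beside 5.21% of all units called higher. With PDGF-AA at 12 h 0 were called higher, beside 0.661%. There 2 of 9 had an unadjusted p under 0.05 (limma), beside 13.2% of units in either direction. At 6 d 3 were called higher without factor (Gstm4, Gstm5 and Gstm6), beside 6.99%, and 1 with PDGF-AA (Gstm6), beside 1.9%. None of the 9 was called lower in any group. Their medians were 0.06, 0.02, 0.02 and 0.09, against medians over all units within 0.01 of 0.

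Gstm4 rose without factor to 0.72 ± 0.19 (SE) at 12 h (limma, adjusted p = 0.0186) and 1.05 ± 0.19 at 6 d (adjusted p = 0.00110). Its arrays read 0.63, 0.64, 1.38 and 1.54 without factor at 6 d, above 0 throughout. With PDGF-AA it was 0.52 at 12 h (adjusted p = 0.188) and 0.71 at 6 d (adjusted p = 0.0509). Leaving out replicate 2, 3 or 4 of the factor-free arrays ended the 12 h call (limma, adjusted p up to 0.0923). A fit with no dye term ended it as well (limma, adjusted p = 0.0518). Gstm6 rose to 0.53 ± 0.11 without factor at 12 h (adjusted p = 0.00531), 0.68 ± 0.11 without factor at 6 d (adjusted p = 0.000639) and 0.51 ± 0.11 with PDGF-AA at 6 d (adjusted p = 0.0184), and had 0.28 with PDGF-AA at 12 h. Its 12 h call was lost without replicate 2 of that group (adjusted p = 0.0583). With PDGF-AA at 6 d its call did not outlast leaving out replicate 2, 3 or 4 (adjusted p up to 0.111), nor a fit with a term for the title number (adjusted p = 0.374). The Gstm6 call with PDGF-AA at 6 d was also lost with no dye term (limma, adjusted p = 0.0698) and with array weights (0.0587). Fitting that group alone ended it too (0.158). Gstm5, at the other end of the cluster from Gstm4, rose to 0.64 ± 0.11 without factor at 6 d (limma, adjusted p = 0.000675), with arrays at 0.50, 0.55, 0.68 and 0.85. It had 0.34 without factor at 12 h (adjusted p = 0.0505), 0.02 with PDGF-AA at 12 h and 0.38 with PDGF-AA at 6 d. The 6 d calls without factor of Gstm4, Gstm5 and Gstm6 held in all 25 alternative fits.

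The 6 measured genes outside the cytosolic classes were not called in any group. Without factor at 12 h 2 of 6 had an unadjusted p under 0.05 (limma), beside 22.8% of units. None had one in the other groups, beside 13.2%, 23.1% and 15.5%. The 6 genes are Mgst1 and Mgst3, microsomal transferases, Ptges and Alox5ap, relatives in prostaglandin and leukotriene synthesis, and Gstcd and Gdap1, proteins with transferase-like domains. Their changes lay between -0.29 for Mgst1 and 0.38 for Mgst3, both without factor at 12 h. Mgst3 and Alox5ap read 0.88 and 0.89 units lower when the sample was in Cy5 than when it was in Cy3, averaged over the groups. The dye effect was past the threshold in 39.1% of units, among them Gstm5 (0.33, limma, adjusted p = 0.0238). It was below the threshold for each member (limma, adjusted p from 0.273 to 0.894). This effect is an average over the groups, and for Gstm1 and Gsta4 the dye gaps had opposite signs in different groups.

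**Figure D4:**
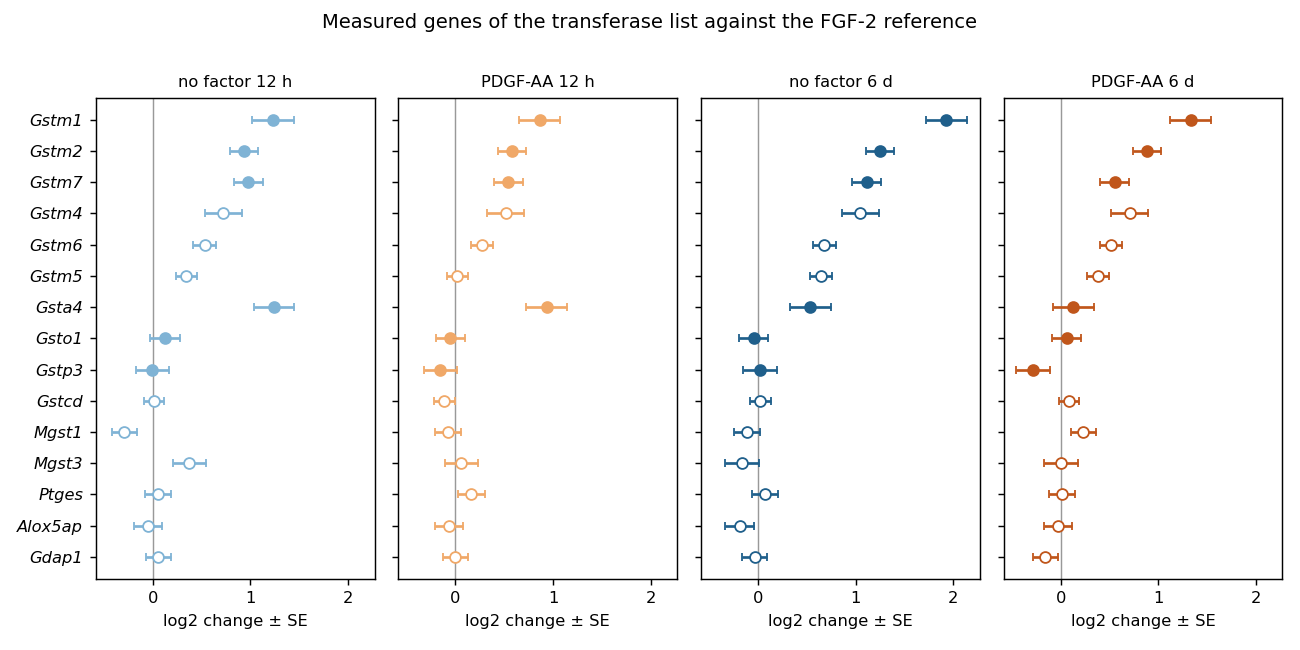
Fitted log2 change against FGF-2 ± SE (horizontal axis) of the 15 measured genes of the transferase list (rows) in the 4 groups (panels), with filled points for the 6 members and open points for the other 9. The estimates of the 6 mu genes at the top are above 0 in every panel, but that of Gstm5 with PDGF-AA at 12 h is next to 0 (0.02 ± 0.11). Gsta4 moves toward 0 at 6 d, and the other genes lie between -0.29 and 0.38.

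Among enzymes that make and use glutathione, Idh1 rose and Gpx1 and Glrx fell. Of 36 listed, 17 were measured. Without factor at 12 h 2 rose and 1 fell, beside 11.7% of units called. With PDGF-AA at 12 h 0 were called, beside 3.01%, and 4 of 17 had an unadjusted p under 0.05 (limma), beside 13.2%. Without factor at 6 d 1 rose and 3 fell, beside 13.7% of units called. With PDGF-AA at 6 d 1 rose and 1 fell, beside 3.22%. With so few genes measured, nothing is read from these counts about the list as a whole. Their median was between -0.10 and -0.05 in all 4 groups. Idh1, which makes NADPH in the cytosol, rose to 0.67 ± 0.12 without factor at 6 d (limma, adjusted p = 0.00135), 0.78 ± 0.12 with PDGF-AA at 6 d (adjusted p = 0.00136) and 0.44 ± 0.12 without factor at 12 h (adjusted p = 0.0286). Gpx1, which reduces hydrogen peroxide with glutathione, fell by 0.53 without factor at 12 h (adjusted p = 0.00144) and by 0.63 at 6 d (adjusted p = 0.000321). Glrx, a glutaredoxin that removes glutathione from proteins, fell by 0.72 without factor at 6 d (adjusted p = 0.00586) and by 0.64 with PDGF-AA at 6 d (adjusted p = 0.0408). Cbs, of the transsulfuration pathway to cysteine, rose to 0.35 without factor at 12 h (adjusted p = 0.0249), and Gpx8, a peroxidase of the endoplasmic reticulum, fell by 0.31 without factor at 6 d (adjusted p = 0.0274). Gclc, the catalytic subunit of the rate-limiting step of glutathione synthesis, lay between -0.32 and 0.12, and Gsr, which regenerates reduced glutathione, between -0.28 and -0.09, neither called in any group.

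Several of these calls were lost when 1 array was left out. Leaving out replicate 1, 2 or 3 of the 12 h arrays without factor ended the Idh1 call there, and leaving out replicate 2, 3 or 4 ended the Cbs call. The Glrx call without factor at 6 d was lost without replicate 3, and the Gpx8 call without replicate 3 or replicate 4. The Glrx call with PDGF-AA at 6 d held in 12 of 25 alternatives and was lost when replicate 1, 2 or 4 of that group, or any of 5 arrays of the other groups, was left out. The Idh1 call with PDGF-AA at 6 d was lost with a term for the title number (limma, adjusted p = 0.105), on arrays of the commonest number (0.115) and when that group was fitted alone (0.128). The Gpx1 calls and the Idh1 call without factor at 6 d held in all 25.

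Among genes known as NRF2 targets or antioxidant enzymes, Ftl1 and Cat rose while Cbr3 and Prdx4 fell. Of 30 listed, 19 were measured: 2 rose and 4 fell without factor at 12 h (beside 11.7% of units called), 0 rose and 1 fell with PDGF-AA at 12 h (beside 3.01%), 4 rose and 3 fell without factor at 6 d (beside 13.7%), and 2 rose and 2 fell with PDGF-AA at 6 d (beside 3.22%). The count with PDGF-AA at 12 h is about the share of all units. Ftl1, the ferritin light chain that stores iron, rose to 0.56 ± 0.10 without factor at 12 h (limma, adjusted p = 0.00169), 0.89 ± 0.10 without factor at 6 d (adjusted p = 2.9e-05) and 0.53 ± 0.10 with PDGF-AA at 6 d (adjusted p = 0.00805). Cat, the peroxisomal catalase, rose to 0.54 ± 0.08 without factor (adjusted p = 0.000306) and 0.51 ± 0.08 with PDGF-AA at 6 d (adjusted p = 0.00169). Mafg, a small Maf partner of NRF2, rose to 0.43 without factor at 6 d (adjusted p = 0.00733), and Prdx2, a cytosolic peroxiredoxin, to 0.38 without factor at 12 h (adjusted p = 0.0284).

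The carbonyl reductase gene Cbr3 fell by 1.71 ± 0.20 without factor at 6 d (limma, adjusted p = 3.5e-05), by 0.91 with PDGF-AA at 6 d (adjusted p = 0.0187) and by 0.76 without factor at 12 h (adjusted p = 0.0205). Prdx4, the peroxiredoxin of the endoplasmic reticulum, fell in all 4 groups, by 0.67, 0.48, 0.76 and 0.54 (limma, adjusted p = 0.000610, 0.0230, 0.000206 and 0.0109). Prdx1, a cytosolic peroxiredoxin, fell by 0.71 without factor at 12 h (adjusted p = 0.00159), and Prdx3, the mitochondrial form, by 0.75 without factor at 6 d (adjusted p = 0.000117). Hmox1, the inducible heme oxygenase, lay between -0.31 and 0.37 and Txnrd1, a thioredoxin reductase, between -0.20 and -0.03, neither called.

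Among these, the calls lost when 1 array of their own group was left out were Prdx2 at 12 h (without replicate 1, 2 or 3 of the group without factor), Cbr3 at 12 h (without replicate 2 or replicate 3 of it), Mafg (without replicate 2 without factor at 6 d), Prdx4 with PDGF-AA at 12 h (without any 1 of replicates 1 to 4), Ftl1 and Prdx4 with PDGF-AA at 6 d (without replicate 2 or replicate 4) and Cbr3 with PDGF-AA at 6 d (without replicate 2, 3 or 4). All 4 calls with PDGF-AA at 6 d, those of Ftl1, Cat, Cbr3 and Prdx4, were also lost with a term for the title number (limma, adjusted p = 0.128, 0.284, 0.156 and 0.130), on arrays of the commonest number and when that group was fitted alone; for Cat these gave 0.294 and 0.161. The calls without factor at 6 d of Ftl1, Cat, Cbr3, Prdx3 and Prdx4 held in all 25 alternatives.

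The means of the astrocyte, oligodendrocyte lineage and mesenchymal markers were, like that of the mu members, highest without factor at 6 d and lowest with PDGF-AA at 12 h; those of the neuronal, progenitor, microglial and endothelial markers did not have this order. The ratios give no absolute level, so the labelled cell type was not checked by level. Of 12 astrocyte markers, 7 were measured, and their mean was 0.37 (arrays 0.20 to 0.51) without factor at 12 h, 0.17 (0.04 to 0.33) with PDGF-AA at 12 h, 1.16 (0.61 to 1.48) without factor at 6 d and 0.43 (-0.08 to 1.20) with PDGF-AA at 6 d. Without factor at 6 d, 5 of the 7 rose and 1 fell, beside 6.99% and 6.73% of all units. Clu rose to 3.22 ± 0.36 (SE) and Entpd2 to 2.17 ± 0.12, whereas Slc1a3 lay at -0.07 ± 0.13 and was not called. The marker that fell was among Gja1, Aldoc, Sparcl1 and Glul, and the rest of these rose. With PDGF-AA at 6 d 3 rose and 1 fell, beside 1.9% and 1.32%. Without factor at 12 h 1 rose (Aldoc, 1.29 ± 0.23) and 1 fell (Slc1a3, -0.44 ± 0.13), beside 5.21% and 6.48%. With PDGF-AA at 12 h 0 were called, beside 3.01%. There 3 of 7 had an unadjusted p under 0.05 (limma), beside 13.2% of units. Of 9 oligodendrocyte lineage markers 3 were measured, with means of 0.52, 0.27, 1.79 and 1.38, and 1, 0, 3 and 2 of them rose. With PDGF-AA at 12 h 1 of these 3 had an unadjusted p under 0.05 (limma), beside 13.2% of units. Of 6 mesenchymal markers 3 were measured, with means of 0.38, 0.19, 1.31 and 0.90, and 0, 0, 3 and 2 rose. In each 12 h group 1 of these 3 had an unadjusted p under 0.05 (limma), beside 22.8% of units without factor and 13.2% with PDGF-AA. Of 7 neuronal markers 4 were measured, with means of 0.18, 0.24, 0.42 and 0.13. In the same order 2, 1, 2 and 0 of them rose, and 1 fell without factor at 12 h. With PDGF-AA at 6 d 2 of 4 had an unadjusted p under 0.05 (limma), beside 15.5% of units. Of 5 progenitor markers Nes and Vim were measured, with means of -0.54, -0.40, -0.60 and -0.55. Of these 1 fell in each group except PDGF-AA at 12 h. There 0 were called, and 2 of 2 had an unadjusted p under 0.05 (limma), beside 13.2% of units. The 2 of 10 microglial and 2 of 6 endothelial markers measured had means between -0.04 and 0.15 and none was called. How far the makeup of the cultures enters the mu ratios was not tested.

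Some genes outside the family followed the members closely over the arrays. Across the 16 arrays with the dye effect removed, and of 6235 named genes compared, those most like the mean of the mu members were Cdc42se2, an effector of the small GTPase Cdc42 (r = 0.941), Sparc, a secreted matricellular protein (0.939), Psap, the precursor of the lysosomal saposins (0.927), Cdkn1c, a cyclin-dependent kinase inhibitor (0.909), and Mmd2 (0.903). Each of the 5 had its highest group mean without factor at 6 d and its lowest with PDGF-AA at 12 h, as did the mu members' mean. They were picked by correlation over these same arrays, so the shared order follows largely from the choice. Of the mu genes outside the members, Gstm5 correlated with the mu mean at 0.822 (rank 53 of 6235), Gstm4 at 0.558 (rank 485) and Gstm6 at 0.516 (rank 602).

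The genes most like Gsta4 were Bckdha, a subunit of branched-chain keto acid dehydrogenase (r = 0.952), Ing4, of the inhibitor of growth family (0.932), and Gadd45g, a growth arrest gene (0.929). Gadd45g had means of 1.79 without factor and 1.02 with PDGF-AA at 12 h, against 0.15 and -0.38 at 6 d. That is the order of groups of Gsta4, which again follows largely from the choice by correlation. For Gsto1 they were Taf9b (0.909), Dcaf4 (0.860) and Gk5 (0.840), and for Gstp3 Pvr (0.911), Kcnn1 (0.888) and Tex12 (0.852), all with group means within 0.2 of 0. These correlations span 16 arrays in 4 groups that share 1 reference and are descriptions.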

How the data were processed

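Per the labels' protocols, 40 µg of total RNA from each group was labelled with Cy3 or Cy5 against FGF-2-treated cells, the dyes being swapped on 2 of 4 arrays per group, hybridised to a mouse cDNA chip stated to hold 15000 spots, scanned on a ScanArray instrument and quantified with QuantArray. The deposited values are 1 log ratio per feature and array, taken as log2; background correction, normalisation and filters are not given in the sources used here. Their column medians lay between -0.0053 and 0.0387.

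Of 15151 features, 8833 carried 1 symbol of the platform annotation, 606 several and 5712 none. Arrays were centred on their median, features of 1 symbol averaged, and group coefficients with a dye term fitted in limma 3.58.1 (R 4.3.3) over 12559 units measured on 3 or more arrays per group, with Benjamini-Hochberg adjustment and a threshold of 0.05. The fit was tested on simulated data. The hybridisations stem from at least 2 RNA preparations, and which arrays share one is not given, so p-values measure the spread between hybridisations. Spot signal above background is not known, and precision is limited by the 4 arrays per group. Replicate numbers only name arrays. Arrays of the same dye orientation correlated at 0.055 or more, and arrays of opposite orientation at -0.452 or more.

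The members and gene lists were chosen with earlier results of these data known. Named genes are the members, the other measured transferase genes, the 3 strongest called genes per direction, group and list, Gclc, Gclm, Gsr, Nqo1, Hmox1 and Txnrd1 where measured (Gclm and Nqo1 were not), and the 5 genes most like the mu mean or 3 most like another member. Alternatives changed the centring, scaling, dye term, title number, feature averaging, filter, array weights and samples; their use on genes outside the members was added after seeing the data. Promoters were searched in RefSeq GRCr8 windows.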

Additional observations from a re-analysis of the deposited data

How the results depend on the processing

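Across 25 alternatives, the calls against FGF-2 of Gstm1, Gstm2, Gstm7 and Gsta4 without factor at 12 h and of Gstm1, Gstm2 and Gstm7 without factor at 6 d held throughout, and no called value of a member changed sign. The number of members called with PDGF-AA at 12 h was 1 with no dye term, and 0 to 4 when 1 array was left out; with PDGF-AA at 6 d it was 0 when only that group was fitted. For 6 d minus 12 h without factor it was 1 (Gsta4) with the title number as a term and 1 on arrays of the commonest number. For 6 d minus 12 h with PDGF-AA it was 0 to 1 when 1 array was left out. Gstm7, just short of the threshold in both PDGF-AA groups, was called in 8 of 25 alternatives with PDGF-AA at 12 h and 7 of 25 at 6 d. Over all member values and alternatives, these included, 1290 kept their side of the threshold and moved by less than the spread of replicates, 26 moved further, 20 gained and 14 lost a call. For the transferase and listed genes outside the members, 1422 held, 3 moved, 20 gained and 80 lost a call. The cause was not tested.

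The units called changed with the fit: from 1468 to between 740 and 2300 without factor at 12 h, from 378 to between 76 and 1745 with PDGF-AA at 12 h, from 1723 to between 990 and 1901 without factor at 6 d, and from 404 to between 28 and 622 with PDGF-AA at 6 d. Between groups they were 2 (0 to 32) for treatment at 12 h, 1 (0 to 58) at 6 d, 235 (87 to 469) for time without factor and 135 (11 to 211) with PDGF-AA. No paired analysis was possible because replicate numbers follow deposition order and the labels tie no arrays of different groups to 1 preparation.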

Other observations

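The dyes split the members differently in the groups. At 12 h, both arrays with the sample in Cy5 lay above both arrays in Cy3 for Gstm1 and Gsta4, with means of 1.65 against 0.81 for Gstm1 and 1.59 against 0.90 for Gsta4 without factor, and of 1.10 against 0.62 and 1.18 against 0.69 with PDGF-AA. With PDGF-AA at 6 d the order of the dye means was the opposite, 1.08 against 1.59 for Gstm1 and 0.00 against 0.26 for Gsta4. In that group the dyes were not balanced over the title number, and only replicate 2 (Cy5) and replicate 3 (Cy3) shared a number. Between them the Cy5 array was higher, as at 12 h, with 1.59 against 1.18 for Gstm1 and 0.49 against -0.38 for Gsta4. Whether the opposite order came with the dye or with the title number was not tested. Each group holds both orientations equally, so the group means are balanced over the dyes.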
